A study of Mus musculus with 13 samples.

Results

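The phagocyte NADPH oxidase was followed through 5 of its genes, Cybb, Cyba, Ncf1, Ncf4 and Rac2, picked by symbol from 19737 genes measured in mouse microglia. All 5 were found, and all 5 had a mean of at least 1 FPKM (fragments per kilobase, relative to the library's size) and were tested. RNA depleted of ribosomal RNA was sequenced from 13 libraries in 4 groups. WT mice that received AAV PHP.eB-EGFP gave 3 libraries, and 5xFAD mice that received the same vector gave 2. 5xFAD mice given an AAV PHP.eB-circPOLR2A vector gave 4 libraries, and mice of the genotype 5xFAD with PKR KO, for which no vector is named, gave 4. The 5xFAD line carries human transgenes with mutations of familial Alzheimer disease, expressed in neurons, and PHP.eB is an AAV capsid used to reach the brain from the blood. PKR is a kinase switched on by double-stranded RNA, and the series concerns circular RNA with double-stranded stretches (ds-cRNA), delivered to neurons. The treatment labels of the circRNA libraries read circPOLR2A(9,10), (9,11), (9,12) and (9,13) for replicates 1 to 4, while the series' design text gives (9,10) for the group, so whether all received the same construct is not known. Age, sex, pooling of animals, the method used to isolate the microglia, the promoter of the vectors and the cells that lack PKR are not given in the sources used here. Nothing in the labels says that replicates came from separate mice, so p-values measure the spread between these libraries.

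The oxidase makes superoxide by passing electrons from NADPH across a membrane to oxygen. Its catalytic core is a membrane heterodimer, gp91phox (NOX2, encoded by Cybb) with p22phox (encoded by Cyba). At rest p47phox (Ncf1) and p40phox (Ncf4) stay in a cytosolic complex, and on activation phosphorylated p47phox docks that complex on p22phox, where the small GTPase Rac joins it. Microglia are the brain's resident phagocytes, and NOX2 is their best known source of superoxide.

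Promoter sequence from RefSeq (GRCm38.p6) was at hand for 3 of the 5 members, Cybb, Cyba and Ncf1. It is shown because it covers the 2 members that rose in the mean of the 3 5xFAD groups and 1 that did not. In 5xFAD EGFP alone Cybb passed and Cyba did not. The 200 bases before the RefSeq transcription start are given 5′ to 3′ on the gene's own strand, which is the minus strand for all 3. Capitals mark matches to GAAANNGAAA, the core of sites for interferon regulatory factors, or to TGANTCA, on either strand. TGANTCA is looser than the core of AP-1 sites, which has C or G as its middle base. The windows are chrX:9469325-9469524 for Cybb, chr8:122432941-122433140 for Cyba and chr5:134229626-134229825 for Ncf1.
Cybb: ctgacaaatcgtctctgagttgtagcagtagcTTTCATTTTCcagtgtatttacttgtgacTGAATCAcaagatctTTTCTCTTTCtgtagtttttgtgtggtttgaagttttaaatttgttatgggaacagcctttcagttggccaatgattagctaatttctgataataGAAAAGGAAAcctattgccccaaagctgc
Cyba: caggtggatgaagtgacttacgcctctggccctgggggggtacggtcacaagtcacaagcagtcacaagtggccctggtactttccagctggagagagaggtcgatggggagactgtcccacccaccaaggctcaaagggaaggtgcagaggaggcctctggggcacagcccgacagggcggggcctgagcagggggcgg
Ncf1: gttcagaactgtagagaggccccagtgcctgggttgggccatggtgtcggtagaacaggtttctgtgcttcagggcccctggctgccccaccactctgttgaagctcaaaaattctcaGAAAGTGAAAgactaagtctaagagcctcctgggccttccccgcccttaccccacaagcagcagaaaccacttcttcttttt
Motifs were searched on both strands in windows of 300 bases, 250 before and 50 after the start. The Cybb window held GAAANNGAAA 3 times, with first bases at -168, -124 and -29 from the start, and TGANTCA 1 time, at -139. That last match reads TGAATCA, and with A in the middle it is not the AP-1 core itself. The Ncf1 window held GAAANNGAAA 1 time, at -82, and the Cyba window held neither motif. GAGGAA, a core of PU.1 sites, occurred 1 time in the Cybb window, 10 bases after the start on the opposite strand and so outside the printed bases, and in neither of the others. Over 32851 RefSeq promoter windows of this length, GAAANNGAAA was present in 3.4%, TGANTCA in 7.8% and GAGGAA in 28.3%, and the motifs do not overlap one another in the Cybb window. These are matches of letters, and no binding was measured.

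In GENCODE M21 (GRCm38), Cybb spans chromosome X 9435252 to 9487771, Cyba chromosome 8 122424776 to 122432930 and Ncf1 chromosome 5 134220053 to 134229625, all on the minus strand. Ncf4 spans chromosome 15 78244801 to 78262580 on the plus strand and Rac2 chromosome 15 78559167 to 78572783 on the minus strand. The Cybb promoter window lies inside the longer GENCODE span of that gene. The predicted gene Gm20388 runs across the whole of Cyba on the opposite strand and has no row in the table, and Gtf2ird2 overlaps Ncf1 by 4303 bases, also on the opposite strand. How counting treated the strand is not given in the sources used here, so reads of these pairs cannot be told apart. Gtf2ird2 was at 2.05 to 3.04 FPKM over all libraries.

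Depth recovered from the steps between low FPKM values was 45.2 to 70.03 M (mega) fragments per library, 57.92 to 70.03 M in PKR KO and 45.2 to 55.13 M in the other groups. That gave Cybb 519 to 4278 fragments in a library, Cyba 3071 to 11683, Ncf1 9116 to 22841, Ncf4 949 to 1983 and Rac2 1545 to 4127, and the largest counting error of any of these values was 4.39%. All 11 microglia markers were present in every library, with a summed level of 2315 to 4242 FPKM. WT replicate 3 stood apart: it had the lowest microglia sum (2315 FPKM, against 3587 and 3682 in the other WT libraries), the highest sum of 6 oligodendrocyte markers (1580.3 FPKM, against a lowest WT value of 352), and the lowest value of each of the 5 oxidase genes among the WT libraries. The comparisons of the members with WT are therefore also given without it. PKR KO replicate 2 had the Y-linked Ddx3y at 0.00550 FPKM, against 6.64 to 9.06 in the other 12 libraries, and Cybb, which is X-linked, is also given without it. Eif2ak2, the gene of PKR, was at 3.35, 4.61, 3.31 and 4.16 FPKM in the PKR KO libraries, below 6.49 and 6.59 in 5xFAD EGFP and 7.37 to 8.11 with circRNA, but not below all WT libraries (5.18, 5.23 and 4.14). Library names are given for the PKR KO group alone, and each library of that group was deeper than every other library. The knockout and any separate making of those libraries therefore cannot be told apart.

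Cybb, the catalytic subunit, was higher in every 5xFAD library than in any WT library. It was at 2.36, 2.56 and 1.77 FPKM in WT EGFP, 9.80 and 8.24 in 5xFAD EGFP, 10.2, 13.9, 12.3 and 10.6 with circRNA, and 9.27, 9.96, 5.85 and 11.2 in PKR KO. The lowest 5xFAD value, PKR KO replicate 3, was still above the highest WT value. Group means were 2.23 ± 0.414 FPKM in WT (SD, n = 3), 9.02 ± 1.11 in 5xFAD EGFP (SD, n = 2), 11.7 ± 1.69 with circRNA (SD, n = 4) and 9.08 ± 2.3 in PKR KO (SD, n = 4). On the log2(FPKM + 1) scale, which understates the change of a gene this low, the mean of the 3 5xFAD groups was 1.74 above WT (SE 0.15, 95% interval 1.41 to 2.08, limma adjusted p = 4.78e-06). The same fit gave 1.64 for 5xFAD EGFP against WT (SE 0.21, adjusted p = 3.19e-04), 1.98 for circRNA (SE 0.18, adjusted p = 7.06e-06) and 1.62 for PKR KO (SE 0.18, adjusted p = 2.57e-05). The 3 comparisons share the WT libraries. With a pseudocount of 0.1 in place of 1 the change over the 3 groups was 2.09 on the log2 scale. Without WT replicate 3 it was 1.64 (adjusted p = 3.20e-05), with 1.53 in 5xFAD EGFP, 1.87 with circRNA and 1.51 in PKR KO, and without PKR KO replicate 2 it was 1.73 (adjusted p = 1.60e-05). Among 10817 tested genes, the Cybb change ranked 91 from the top.

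Cyba, the partner that stabilises gp91phox and carries the docking site for p47phox, moved the same way by a smaller step. Its values were 89.0, 101 and 58.5 FPKM in WT, 139 and 112 in 5xFAD EGFP, 128, 158, 199.6 and 116 with circRNA, and 171, 161, 157 and 148 in PKR KO. Every 5xFAD library was above every WT library, although 5xFAD EGFP replicate 2 and circRNA replicate 4 came near WT replicate 2. The mean of the 3 5xFAD groups was 0.82 above WT on the log2(FPKM + 1) scale (SE 0.18, 95% interval 0.43 to 1.20, limma adjusted p = 0.00428), a 1.76-fold change. Cyba rose with circRNA (log2 0.86, SE 0.21, adjusted p = 0.00885) and in PKR KO (log2 0.97, SE 0.21, adjusted p = 0.00339). In 5xFAD EGFP, with 2 libraries, the difference of 0.62 did not pass (SE 0.25, adjusted p = 0.122). The call with circRNA was lost when only the compared groups entered the fit (adjusted p = 0.0528). Without WT replicate 3 the change over the 3 groups was 0.59 (adjusted p = 0.0203), and those with circRNA and in PKR KO were 0.63 (adjusted p = 0.0284) and 0.74 (adjusted p = 0.0100), while that in 5xFAD EGFP was 0.39 (adjusted p = 0.225). With quantile normalization the changes of Cyba were smaller, 0.41 over the 3 groups (adjusted p = 0.0228), 0.45 with circRNA (adjusted p = 0.0314) and 0.41 in PKR KO (adjusted p = 0.0391).

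Thus 2 of the 5 members rose in the mean of the 3 5xFAD groups and none fell, where 30.5% of all tested genes passed (16.7% higher, 13.9% lower). Against WT singly, 1 of 5 passed as higher in 5xFAD EGFP, where 14.0% of tested genes passed and 7.65% were higher. It was 2 of 5 with circRNA, where 25.8% passed and 17.8% were higher, and 2 of 5 in PKR KO, where 37.0% passed and 17.5% were higher. The median change of the 5 members over the 3 groups was 0.30 on the log2 scale, against -0.02 for all tested genes. Members whose 5xFAD libraries did not overlap the WT libraries numbered 2 of 5, both higher, against 18.5% of tested genes in either direction and 12.7% higher. In bulk libraries, more RNA per cell and more cells of a type cannot be told apart.

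**Figure D1:**
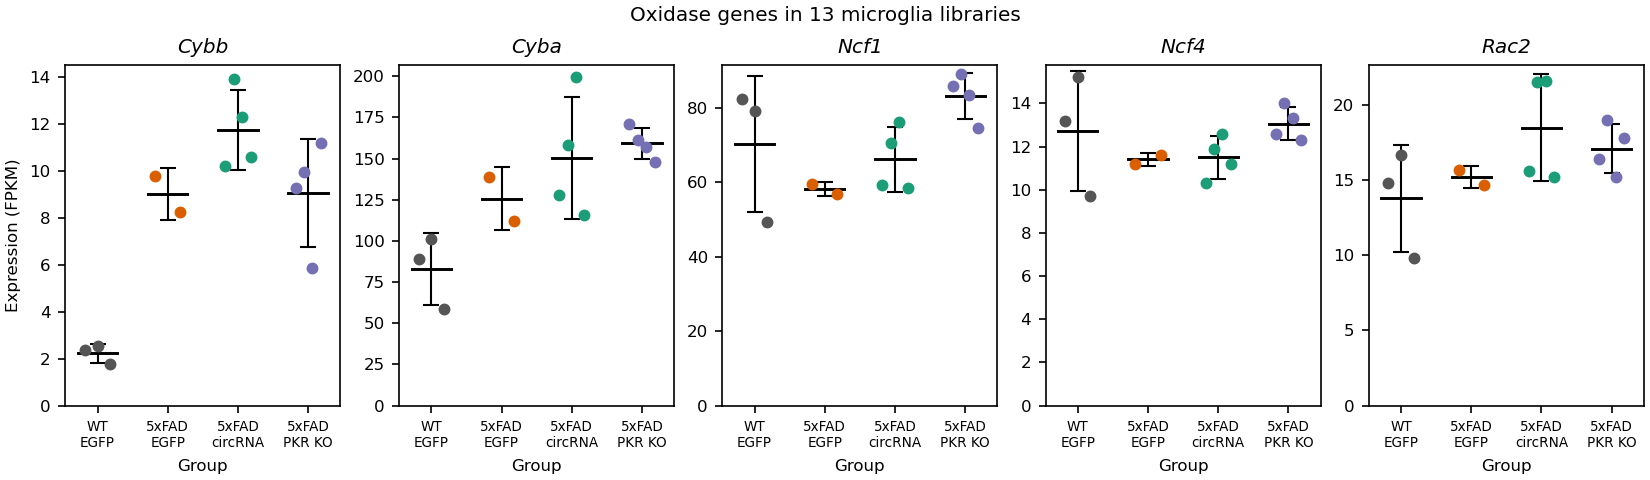
Expression of the 5 oxidase genes (FPKM, linear axes from 0) in each of 13 libraries by group; points are libraries, the wide bar is the group mean and the error bar 1 SD (n = 3, 2, 4 and 4). Cybb lies between 1.77 and 2.56 FPKM in WT and between 5.85 and 13.9 in 5xFAD, while Ncf4 lies in the same range, 9.73 to 15.2, in all groups.

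Ncf1, the organiser p47phox that is phosphorylated on activation, passed in none of the comparisons with WT. It was at 82.4, 79.3 and 49.3 FPKM in WT, 59.6 and 56.9 in 5xFAD EGFP, 59.4, 70.5, 76.3 and 58.4 with circRNA, and 86.0, 89.0, 83.4 and 74.6 in PKR KO. The WT range, stretched by replicate 3, covered all but 3 PKR KO libraries. The difference between the mean of the 3 5xFAD groups and WT was -0.01 on the log2(FPKM + 1) scale (95% interval -0.32 to 0.31, limma adjusted p = 0.979). Without WT replicate 3, Ncf1 fell in 5xFAD EGFP against WT (log2 -0.47, adjusted p = 0.0350, where all libraries gave -0.23, adjusted p = 0.502), and the differences with circRNA (-0.29, adjusted p = 0.0938) and in PKR KO (0.04, adjusted p = 0.828) did not pass. With quantile normalization Ncf1 fell over the 3 groups (-0.37, adjusted p = 0.0299) and with circRNA (-0.45, adjusted p = 0.0253), while in PKR KO it was -0.16 (adjusted p = 0.372).

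Ncf4, the p40phox subunit that binds phosphatidylinositol 3-phosphate on phagosomes, had the narrowest range over the groups. It was at 13.2, 15.2 and 9.73 FPKM in WT, 11.2 and 11.6 in 5xFAD EGFP, 10.3, 11.9, 12.6 and 11.2 with circRNA, and 12.6, 14.0, 13.3 and 12.3 in PKR KO. The WT range, with replicates 2 and 3 at its ends, covered every 5xFAD library. Over the 3 5xFAD groups the difference was -0.06 (95% interval -0.29 to 0.16, limma adjusted p = 0.685). Without WT replicate 3 it was -0.23 (adjusted p = 0.0502), and the difference with circRNA passed at -0.28 (adjusted p = 0.0397), while those in 5xFAD EGFP (-0.30, adjusted p = 0.0683) and in PKR KO (-0.11, adjusted p = 0.353) did not. With libraries weighted by their quality it fell with circRNA (-0.33, adjusted p = 0.0233). Rescaling libraries to the same FPKM sum moved the median of all genes over the 3 groups from -0.02 to -0.20, and 51.0% of tested genes then passed as lower; Ncf4 was among them at -0.28 (adjusted p = 0.0398), close to that median.

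Rac2, the Rac GTPase of blood-forming cells, was between these patterns. It was at 14.8, 16.7 and 9.85 FPKM in WT, 15.7 and 14.7 in 5xFAD EGFP, 15.6, 21.5, 21.6 and 15.2 with circRNA, and 16.4, 19.0, 15.2 and 17.8 in PKR KO. Replicates 2 and 3 of circRNA and replicates 2 and 4 of PKR KO were above every WT library, and the other 5xFAD libraries were inside the WT range. The difference over the 3 groups was 0.30 on the log2(FPKM + 1) scale (95% interval -0.02 to 0.62, limma adjusted p = 0.149). It was 0.41 with circRNA (adjusted p = 0.0945), where it passed without WT replicate 2 (0.56, adjusted p = 0.0395). With WT replicate 3 left out, Rac2 differed by 0.09 over the 3 groups (adjusted p = 0.640), -0.05 in 5xFAD EGFP, 0.20 with circRNA and 0.11 in PKR KO.

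**Figure D2:**
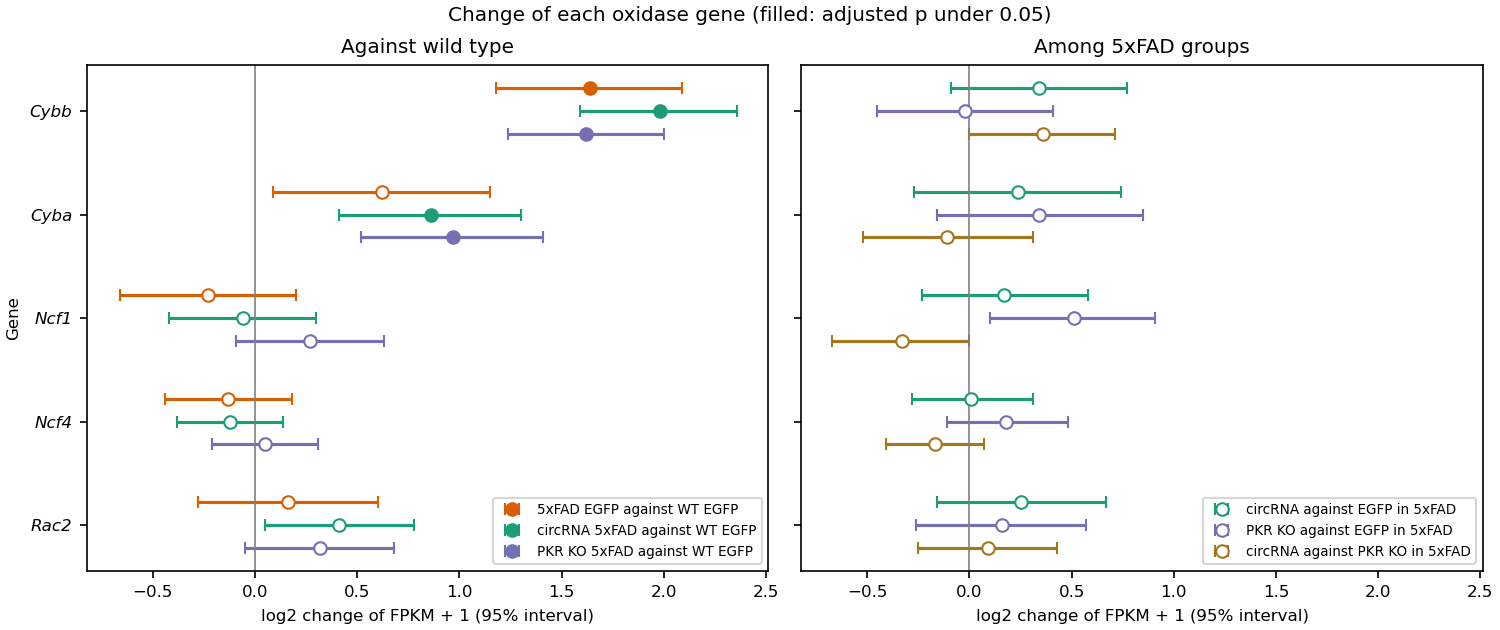
Difference of each oxidase gene on the log2(FPKM + 1) scale with its 95% interval, against WT (left) and among the 5xFAD groups (right); filled points have a limma adjusted p under 0.05. The filled points are Cybb in all 3 comparisons with WT, 1.62 to 1.98, and Cyba with circRNA (0.86) and in PKR KO (0.97), and no point on the right is filled.

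Markers of other cells also differed between the groups. The sums of 8 border macrophage markers were 45.0 to 71.1 FPKM in WT and 17.5 to 31.5 in 5xFAD, with no overlap. Those of 7 monocyte markers were 8.90 to 20.0 and 4.81 to 10.5, and those of 7 endothelial and mural markers 85.9 to 194 and 35.7 to 99.8. The sums of the other 2 lists overlapped, the endothelial and mural one only through circRNA replicate 3 (99.8) and WT replicate 2 (85.9). Over the 3 groups, where 13.9% of all tested genes fell, 6 of 7 tested border macrophage markers fell (median -1.08), as did 6 of 7 endothelial and mural markers (median -1.20) and the 1 monocyte marker tested, Fn1 (-0.87, limma adjusted p = 0.00653). The sums of 6 astrocyte markers overlapped too (78.3 to 258 FPKM in WT and 119 to 214 in 5xFAD), with a median change of -0.43 and 5 of the 6 lower without passing, but the sixth, Gfap, rose over the 3 groups (log2 1.94, limma adjusted p = 1.76e-04), from 11.6 to 29.9 FPKM in WT to 49.6 to 116 in 5xFAD. Neutrophils are rich in the oxidase. Of their markers, Ly6g and Mpo reached at most 0.116 and 0.262 FPKM, and S100a9, Ngp and S100a8 at most 11.9, 6.68 and 3.88. Ly6g was at 0 in both 5xFAD EGFP libraries. The sum of 11 neutrophil markers ran from 6.24 to 7.98 FPKM in WT, 4.85 to 10.7 in 5xFAD EGFP and 1.77 to 10.8 with circRNA. In PKR KO it was 5.32, 2.45, 1.43 and 27.3 in replicates 1 to 4. Replicate 4 also had the highest Cybb of that group, at 11.2 FPKM. A twelfth, Csf3r, was at 70.3 to 103 FPKM in WT and 104 to 152 in 5xFAD. It passed as higher over the 3 groups and in PKR KO, the 1 called of 4 neutrophil markers tested. Of all tested genes 16.7% and 17.5% were higher there. The 11 lymphocyte markers summed to 2.82 to 4.52 FPKM in WT and 2.28 to 4.66 in 5xFAD, mostly Cd79b (1.41 to 3.86 in all libraries). The T and natural killer cell genes Cd3e and Nkg7, named here after their values were seen, were higher in 5xFAD with no overlap at very low levels, Cd3e at most 0.0146 FPKM in WT and 0.0232 to 0.107 in 5xFAD, and Nkg7 at most 0.0459 and 0.0614 to 0.351. Both were too low to be tested, and 12.7% of tested genes were higher with no overlap. Cd4 had lower means in 5xFAD EGFP, circRNA and PKR KO (0.321, 0.413 and 0.272 FPKM) than in WT (0.600). Cd4, Cd3d, Cd3g, Cd8a and Gzma overlapped between WT and 5xFAD. The part of blood and border cells in the result was not tested. With the level of neuron, astrocyte, oligodendrocyte, endothelial and mural markers in the fit, Cybb was 1.64 above WT over the 3 groups (limma adjusted p = 2.27e-06) and Cyba 0.66 (adjusted p = 0.00485). With the level of 4 microglia markers (Csf1r, Aif1, C1qa and Gpr34) in the fit instead, Cybb was 1.61 above (adjusted p = 5.28e-06) and Cyba 0.59 above (adjusted p = 7.57e-04), while Ncf1 and Ncf4 passed as lower (-0.20, adjusted p = 0.0459, and -0.19, adjusted p = 0.0412). Of these 4 markers C1qa itself rose over the 3 groups (0.78, adjusted p = 0.00578), so the covariate is not independent of the 5xFAD genotype. Of all 11 microglia markers, C1qa and Trem2 (1.39, adjusted p = 5.62e-05) rose and Tmem119 (-0.93, adjusted p = 0.00424) and P2ry12 (-0.61, adjusted p = 0.0137) fell. These counts are near the shares of all tested genes, 16.7% higher and 13.9% lower. Both of the fits with markers were chosen after seeing the data.

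Ratios between members within a library do not change when all values of a library are multiplied by 1 factor, though they would under quantile normalization, under which they were not run. The log2 ratio of Cybb to Ncf1 FPKM was -5.13, -4.95 and -4.80 in the 3 WT libraries and -3.83 to -2.35 in the 10 5xFAD libraries, a mean difference of 2.13. All 10 pairs of members were compared by an exact two-sided permutation test, whose smallest possible p is 0.00350. The ratio of Cybb to each other member was higher in 5xFAD, by 1.31 over Cyba, 2.13 over Ncf1, 2.22 over Ncf4 and 1.82 over Rac2. The ratio of Cyba to each cytosolic member was also higher, by 0.82 over Ncf1, 0.92 over Ncf4 and 0.51 over Rac2. Each of these 7 had an exact permutation p of 0.00350, the smallest possible, and 0.00500 after Benjamini-Hochberg adjustment over the 10 pairs, with no overlap between WT and 5xFAD libraries. These pairs follow in part from the changes of Cybb and Cyba given above, since the same libraries enter.

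Among the cytosolic members, the ratio of Ncf4 to Rac2 was lower in 5xFAD by 0.40 (means -0.51 in 5xFAD and -0.10 in WT, exact permutation p = 0.00699, adjusted 0.00874), with no overlap. The ratio of Ncf1 to Ncf4 differed by 0.09 (exact permutation p = 0.378) and that of Ncf1 to Rac2 by -0.31 (exact permutation p = 0.0769, adjusted 0.0855), and in both the libraries overlapped. Without WT replicate 3 the 8 ratios that passed lay within 0.08 of these values, with exact permutation p of 0.0152 or, for Ncf4 to Rac2, 0.0303. As a description, the mean log2(FPKM + 1) of the 3 cytosolic members minus that of the 2 membrane members was 0.56 ± 0.06 in WT (SD, n = 3), -0.64 ± 0.16 in 5xFAD EGFP (SD, n = 2), -0.78 ± 0.07 with circRNA (SD, n = 4) and -0.52 ± 0.17 in PKR KO (SD, n = 4). This difference of means was above 0 in each WT library and below 0 in each 5xFAD library.

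**Figure D3:**
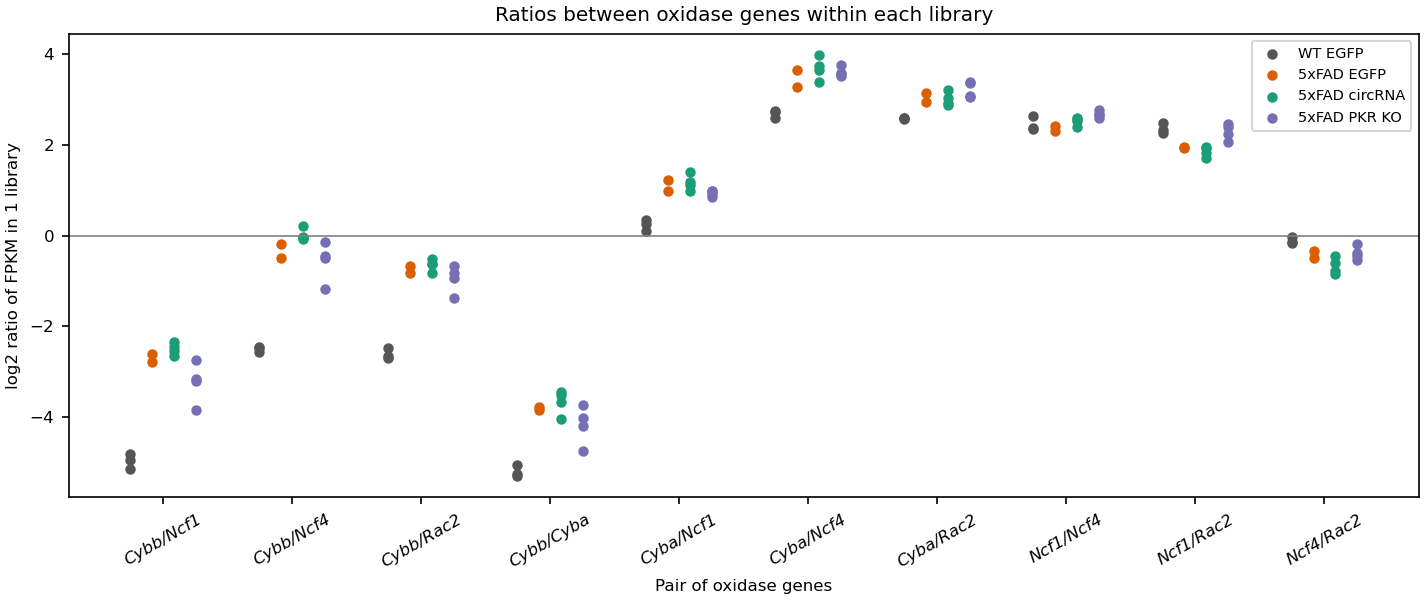
Log2 ratio of FPKM of each pair of oxidase genes within 1 library, by group; each point is a library (n = 3 WT, 2 5xFAD EGFP, 4 circRNA, 4 PKR KO). In the first 7 pairs, those with Cybb or Cyba on top, WT lies below all 5xFAD libraries, and Ncf1 to Ncf4 has the groups mixed.

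Among the 5xFAD groups, no member passed the test in any of the 3 comparisons. Between circRNA and EGFP the largest difference was Cybb at 0.34 on the log2(FPKM + 1) scale (95% interval -0.09 to 0.77, limma adjusted p = 0.739), with all 4 circRNA libraries (10.2 to 13.9 FPKM) above both EGFP libraries, as in 16.6% of tested genes. The others were 0.24 for Cyba (-0.27 to 0.74), 0.17 for Ncf1 (-0.23 to 0.58), 0.01 for Ncf4 (-0.28 to 0.31) and 0.25 for Rac2 (-0.16 to 0.67). In this comparison 0% of the tested genes passed, and at an unadjusted p under 0.05 there were 0 members and 523 genes (4.83%). The voom fit on recovered fragments also called 0 members.

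Between PKR KO and 5xFAD EGFP, where 0.0832% of tested genes passed, Ncf1 had the largest difference of the 5. Its 4 PKR KO libraries (74.6 to 89.0 FPKM) were all above its 2 EGFP libraries (56.9 and 59.6), with a log2 difference of 0.51 (SE 0.19, 95% interval 0.10 to 0.91, unadjusted p = 0.0189 and adjusted p = 0.280 in limma). It ranked 142 from the top of 10817 genes. Cyba (148 to 171 against 112 and 139 FPKM) and Ncf4 (12.3 to 14.0 against 11.2 and 11.6) were likewise higher with no overlap, so 3 of the 5 members were, against 17.7% of tested genes. The Ncf1 difference passed when only the 2 groups entered the fit (adjusted p = 0.0236) or libraries were weighted by their quality (log2 0.53, adjusted p = 0.0224). Gtf2ird2, which overlaps Ncf1 on the opposite strand, was also higher in PKR KO (2.88 to 3.04 FPKM) than in EGFP (2.17 and 2.48), and its part in the Ncf1 value was not tested. Sums of other-cell markers also separated these groups: 6 oligodendrocyte markers summed to 225 to 375 FPKM in PKR KO and 636 and 679.8 in EGFP, and 7 neuron markers to 7.47 to 13.0 and to 18.2 and 21.1. With the other-cell markers in the fit, Ncf1 was 0.32 higher in PKR KO (adjusted p = 0.294). Cybb differed by -0.02 (-0.45 to 0.41), Cyba by 0.34 (-0.16 to 0.85), Ncf4 by 0.18 (-0.11 to 0.48) and Rac2 by 0.16 (-0.26 to 0.57). Of the 5 members, 1 had an unadjusted p under 0.05, against 13.0% of tested genes, and 0 were called by voom.

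Between circRNA and PKR KO, where 6.19% of tested genes passed, Cybb and Ncf1 differed in opposite directions. Cybb was 0.36 higher with circRNA (95% interval 0.00 to 0.71, unadjusted p = 0.0474, adjusted p = 0.190 in limma), with overlapping libraries. Ncf1 was 0.33 lower on the same scale (difference -0.33, unadjusted p = 0.0490, adjusted p = 0.194), and circRNA replicate 3 at 76.3 FPKM overlapped PKR KO replicate 4 at 74.6. These 2 of 5 members had an unadjusted p under 0.05, against 25.5% of tested genes. The Ncf1 difference passed without WT replicate 3, a library outside this comparison that enters its spread (adjusted p = 0.0454). Cyba differed by -0.11, Ncf4 by -0.17 and Rac2 by 0.09. In a comparison of within-library ratios added after these values were seen, Cybb to Ncf1 was 0.74 higher with circRNA than in PKR KO on the log2 scale (means -2.50 ± 0.13 and -3.23 ± 0.45, SD, n = 4 each) with no overlap. Its exact permutation p was 0.0286, the smallest that 4 against 4 allows, and 0.0571 after adjustment over the 10 pairs, as were those of Cybb to Ncf4 (0.58), Cyba to Ncf1 (0.23), Ncf1 to Ncf4 (-0.15) and Ncf1 to Rac2 (-0.44). No pair passed after adjustment.

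Ordered by level per length, Cyba and Ncf1 were the most abundant members in every group, Cyba above Ncf1 in each of the 13 libraries. In WT the ratio of Cyba to Ncf1 was small, 0.11 to 0.35 on the log2 scale, and in 5xFAD it was 0.85 to 1.39. Rac2 followed at group means of 13.8 to 18.5 FPKM and Ncf4 at 11.4 to 13.0, and in WT their ranges overlapped. Cybb was the lowest member in WT at 2.23 FPKM and reached the level of Ncf4 with circRNA (11.7 ± 1.69 against 11.5 ± 1.00 FPKM, SD, n = 4), where the 2 genes did not differ beyond their spread. Over the groups, Cybb was ordered WT, 5xFAD EGFP, PKR KO and circRNA, and neighbouring 5xFAD groups overlapped. Cyba was ordered WT, EGFP, circRNA and PKR KO, again with overlap between neighbouring 5xFAD groups. Ncf1 was lowest in 5xFAD EGFP and highest in PKR KO, with circRNA (66.1 ± 8.69) and WT (70.3 ± 18.3) between them and not apart from each other.

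Correlations between members are given as a description, since the values share a library's scaling and WT replicate 3. Over the 13 libraries Pearson's r of log2(FPKM + 1) was 0.87 for Ncf1 with Ncf4, 0.85 for Cyba with Rac2 and 0.83 for Cybb with Cyba, 0.70 for Cybb with Rac2, 0.36 to 0.59 for the remaining pairs without Cybb, but 0.08 for Cybb with Ncf1 and -0.11 for Cybb with Ncf4. With group means removed, the 6 pairs among Cyba, Ncf1, Ncf4 and Rac2 were at 0.80 to 0.90, Cybb with Rac2 was at 0.71, and Cybb with Cyba, Ncf1 and Ncf4 at 0.35 to 0.46. The 3 tested genes most like each member over the 13 libraries were named by the same r. For Cybb these were Cd5 (0.988), a scavenger receptor family protein best known from lymphocytes, Masp1 (0.987), a protease of the lectin pathway of complement, and Cd72 (0.985), a lectin-like receptor. Their levels in WT were under 1 FPKM, and Cd72 went from 0.586 ± 0.0345 in WT (SD, n = 3) to 4.46 ± 0.779 with circRNA (SD, n = 4). For Cyba they were Cndp2 (0.990), a dipeptidase, Ctss (0.986), the protease cathepsin S, and Tapbp (0.985), tapasin of the peptide loading complex. For Ncf1 they were Plekho1 (0.966), Uvrag (0.961), of endosome and autophagosome maturation, and Wdr81 (0.945). For Ncf4 they were Ccdc88b (0.939), Sh3bp1 (0.935) and G430095P16Rik (0.931), and for Rac2 they were Clic1 (0.955), the histone gene H2ac20 (0.952) and Ncstn (0.951), the nicastrin subunit of gamma-secretase.

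Of 12 other subunits and NOX family genes, 4 were tested in the mean of the 3 5xFAD groups against WT, and 1 passed, where 30.5% of all tested genes passed. It was Rac3, a Rac form best known from neurons, which was lower (-0.51, limma adjusted p = 0.0172), but not without WT replicate 1 (-0.41, adjusted p = 0.0989) or WT replicate 2 (-0.44, adjusted p = 0.0744). It was -0.67 without WT replicate 3 (adjusted p = 0.00436). Rac1, the widely expressed Rac, was at 44.6 ± 5.64 FPKM in WT and 53.3 ± 6.80 with circRNA (SD, n = 3 and 4), below Ncf1 in each of the 13 libraries, and its change over the 3 groups was 0.16 (95% interval -0.06 to 0.38, adjusted p = 0.269). Cybc1, needed for gp91phox maturation, differed by -0.04 (adjusted p = 0.877) and Noxo1, a homologue of Ncf1, by -0.16 (adjusted p = 0.168). Rac1 differed by 0.05, Cybc1 by -0.20 and Noxo1 by -0.23 without WT replicate 3, and none of these 3 passed. The other catalytic subunits were scarce: Nox1 was at most 0.0688 FPKM, Nox4 at most 0.0200, Duox1 at most 0.00398 and Duox2 at most 0.0269, and Nox3 was at 0 in every library, as was Noxa1, an activator of NOX enzymes. Of the DUOX maturation factors, Duoxa2 was at most 0.0138 FPKM. Duoxa1, too low to be tested, was at 0.419 to 0.633 FPKM in WT and 0.0503 to 0.240 in 5xFAD, with no overlap. Cybb was thus the one NOX catalytic gene above the filter of 1 FPKM.

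Of 18 genes that activate or regulate the oxidase, 4 rose and 1 fell in the mean of the 3 5xFAD groups, against 16.7% of all tested genes higher and 13.9% lower, with a median log2 change of 0.00 (-0.02 for all tested genes). Hvcn1, the proton channel that carries charge out alongside superoxide production, went from 28.1 ± 6.22 FPKM in WT (SD, n = 3) to 51.0 ± 9.15 with circRNA (SD, n = 4), a change over the 3 groups of 0.75 (SE 0.14, limma adjusted p = 0.00138). Arhgdia, which holds Rac in its inactive form in the cytosol, rose by 0.60 (SE 0.11, adjusted p = 0.00131). Prkca, a protein kinase C form, fell by 0.92 (SE 0.06, adjusted p = 4.81e-07), from 7.41 ± 0.797 FPKM in WT to 2.81 ± 0.219 in PKR KO (SD, n = 4). This list's split depended on scaling: with libraries rescaled to the same FPKM sum, where 10.2% of all tested genes passed as higher and 51.0% as lower, 2 passed as higher and 9 as lower. With quantile normalization 2 rose and 5 fell (17.0% and 16.9% of all tested genes), and without WT replicate 3 there were 3 of each (14.8% and 15.7%).

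Of 9 NADPH-supplying genes, 5 rose and 1 fell, with a median of 0.22, where 16.7% of all tested genes rose and 13.9% fell. In the pentose phosphate pathway, G6pdx, its first enzyme, rose by 0.43 (SE 0.09, limma adjusted p = 0.00334) and Pgls, the next, by 0.50 (SE 0.09, adjusted p = 0.00149). Idh2, which makes NADPH in mitochondria, fell by 0.68 (SE 0.10, adjusted p = 2.01e-04), from 23.3 ± 1.21 FPKM in WT (SD, n = 3) to 14.5 ± 1.39 in 5xFAD EGFP (SD, n = 2). With rescaled libraries (10.2% of all tested genes higher and 51.0% lower) 3 passed as higher and 2 as lower, and without WT replicate 3 (14.8% and 15.7%) 4 rose and 1 fell. Of 23 antioxidant genes tested of 24 listed, 9 rose and 2 fell, with a median of 0.09, against the same 16.7% and 13.9%. The peroxidase of the endoplasmic reticulum Prdx4 rose by 0.96 (SE 0.12, adjusted p = 8.31e-05), the haem oxygenase Hmox1 by 0.81 (SE 0.16, adjusted p = 0.00215) and the glutathione peroxidase Gpx1 by 0.70 (SE 0.14, adjusted p = 0.00255). With rescaled libraries 5 of 23 passed as higher and 7 as lower, where 10.2% of all tested genes were higher and 51.0% lower. Without WT replicate 3 (14.8% and 15.7%) 8 rose and 1 fell.

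Of 7 transcription factors known to act on oxidase genes, 4 rose and 0 fell, with a median of 0.30, where 16.7% of all tested genes rose. Irf8, an interferon regulatory factor of the myeloid lineage, rose by 0.72 (SE 0.11, limma adjusted p = 3.23e-04), from 30.1 ± 5.36 FPKM in WT (SD, n = 3) to 55.7 ± 1.43 in PKR KO (SD, n = 4). Cebpa rose by 0.61 (SE 0.16, adjusted p = 0.00985) and Irf1 by 0.49 (SE 0.11, adjusted p = 0.00413). Spi1, the gene of PU.1 and named here after its values were seen, differed by 0.14 (95% interval -0.17 to 0.45) and did not pass. With rescaled libraries (10.2% of all tested genes higher) and without WT replicate 3 (14.8%), 3 rose, and with quantile normalization (17.0%) 2 rose. Between circRNA and PKR KO, Irf1 was lower by 0.42 (difference -0.42, SE 0.11, adjusted p = 0.0491), at 13.3 ± 1.82 FPKM with circRNA and 18.0 ± 2.05 in PKR KO (SD, n = 4 each).

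In that same comparison, Rap1a, a small GTPase found with flavocytochrome b558, was higher with circRNA by 0.43 (SE 0.07, limma adjusted p = 0.00794), Prkca was higher by 0.28 (SE 0.07, adjusted p = 0.0314), and Pik3cd, a leukocyte phosphoinositide 3-kinase, was lower (-0.40, adjusted p = 0.0352). These were the 3 regulatory genes of 18 that passed, against 6.19% of all tested genes. With 1 library left out, that share ran from 1.36% (without PKR KO replicate 1) to 12.4% (without WT replicate 3). The calls of these lists in those fits are not reported here. The plasma glutathione peroxidase gene Gpx3 was lower with circRNA (-0.74, SE 0.14, adjusted p = 0.0138), and the mitochondrial Prdx3 (0.42, adjusted p = 0.0194) and Sod2 (0.33, adjusted p = 0.0314) were higher, 3 of 23 antioxidant genes in all. The malic enzyme Me2 (0.24, adjusted p = 0.0385) was the 1 called of 9 NADPH-supplying genes, and Irf1 the 1 of 7 transcription factors. No gene of these 4 lists passed between circRNA and EGFP or between PKR KO and EGFP.

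**Figure D4:**
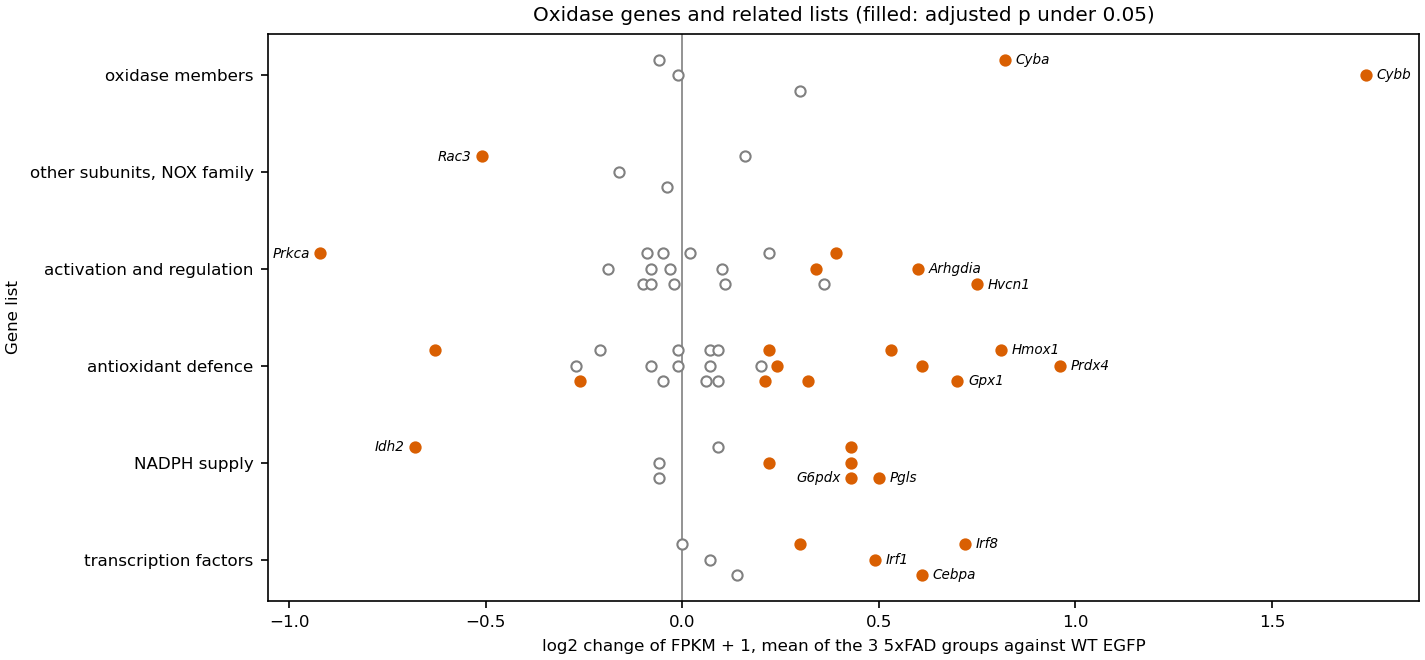
Difference between the mean of the 3 5xFAD groups and WT EGFP on the log2(FPKM + 1) scale for each tested oxidase gene and 5 related lists; filled points have a limma adjusted p under 0.05, and up to 3 of them per list are named. Cybb at 1.74 lies to the right of every other gene shown, and Prkca at -0.92 farthest to the left.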

How the data were processed

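Microglial RNA was extracted with TRIzol, depleted of ribosomal RNA and made into stranded total RNA libraries, per the labels' protocols. The submitters' processing notes name Bowtie2 2.3.5, HISAT2 2.1.0, featureCounts 1.5.1 and the build mm10; their roles, the annotation and the strand setting are not given in the sources used here. The authors deposited FPKM values for 19737 genes, with a column for every library and no pooling. Because FPKM is relative to the library's total, a change in abundant genes can shift the values of others.

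Here limma 3.58.1 (R 4.3.3) was fitted to log2(FPKM + 1) of the 10817 genes whose mean reached 1 FPKM. The model held a mean for each of 4 groups, with 9 residual degrees of freedom and an intensity trend, and gave 7 comparisons. P-values were two-sided and adjusted by Benjamini-Hochberg over all tested genes within a comparison, with a threshold of 0.05. The fit was tested on simulated data. Lengths for the depth estimate came from GENCODE M21 (GRCm38), matched for 98.3% of genes, and 91.3% to 93.1% of values below 0.3 FPKM in a library were whole fragments within 0.05, against 10% by chance. Counting error covers sampling of fragments only. The same replicate number in 2 groups was not taken to pair the libraries.

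The members and gene lists were chosen with earlier results of these data known. Named genes were the members, the other subunits, up to 3 called genes with the largest change per list, and the 3 genes most correlated with each member; some listed genes are not reported here. Alternatives were another pseudocount, no filter, other scalings, only the compared groups, quality weights, a replicate block and each library left out. Chosen after seeing the data were voom on recovered fragments, marker covariates, and the alternatives for ratios and lists.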

Additional observations from a re-analysis of the deposited data

How the results depend on the processing

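Cybb passed as higher than WT under all 24 alternatives of each single comparison and all 23 of the mean over the 3 5xFAD groups, with log2 changes of 1.57 to 2.15 in the latter. Cyba passed in PKR KO against WT under all 24, in the mean over the 3 groups under all 23 (0.41 to 0.98) and with circRNA under 23 of 24. PKR KO against WT called 2 members under every alternative and circRNA against EGFP 0. Other counts of called members changed. In 5xFAD EGFP against WT the count went from 1 to 3 with the microglia marker covariate (23.9% of all genes called), and over the fits that each leave out 1 library it was 1 to 2, with 2 without WT replicate 3. With circRNA against WT it went from 2 to 1 with only the compared groups and to 4 with the microglia covariate (26.6%), was 3 with quality weights or rescaled (Ncf4, lower; 27.2% and 52.5% of all genes called) and with quantile normalization (Ncf1, lower; 29.2%), and was 2 to 3 when 1 library was left out (Rac2 passed without WT replicate 2, and Ncf4, lower, without WT replicate 3), and over the 3 groups from 2 to 4 with that covariate (36.2%). In PKR KO against EGFP it went from 0 to 1 with only the compared groups and with quality weights, both times Ncf1 (5.33% and 7.60% of all genes called). In circRNA against PKR KO it went from 0 to 2 with quality weights and with the microglia covariate (Ncf1 and Ncf4, lower; 29.2% and 20.3% of all genes called), and was 0 to 1 when 1 library was left out. The difference between cytosolic and membrane members, 5xFAD minus WT, was -1.38 with a pseudocount of 0.1. The cause of these changes was not tested.

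A replicate block left the counts of called members at 1, 2, 2 and 2 against WT (EGFP, circRNA, PKR KO and the mean) and 0 in the 3 comparisons within 5xFAD, and Cybb was 1.69 above WT over the 3 groups. Correlations of same-numbered libraries averaged 0.02 to 0.33 between pairs of groups, with single values from -0.42 to 0.69. Those of other-numbered libraries averaged -0.11 to -0.02, lower in each pair of groups. The numbers were not taken to pair libraries, and these values do not settle whether they do.

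Small uncalled differences changed sign. Rac2 in 5xFAD EGFP against WT was -0.00 rescaled to the same FPKM sum, -0.01 with quality weights and -0.05 to 0.30 when 1 library was left out. In the latter fits Ncf4 was -0.30 to 0.00 there and -0.28 to 0.02 with circRNA against WT, where Ncf1 was -0.29 to 0.07. In PKR KO against WT, Ncf1 was -0.16 with quantile normalization, and Ncf4 was -0.03 with quantile normalization, -0.16 rescaled, -0.08 with quality weights, -0.11 to 0.19 with 1 library left out, -0.16 with the other-cell covariate and -0.08 with the microglia covariate. Over the 3 groups Ncf1 was 0.01 with the block and -0.24 to 0.12 with 1 library left out, Ncf4 -0.23 to 0.07, Cybc1 0.01 with the block and -0.20 to 0.11, and Rac1 -0.10 with quantile normalization and -0.07 rescaled. Between circRNA and EGFP, Ncf4 was -0.08 with quantile normalization and with median-ratio scaling, -0.09 rescaled, -0.06 with quality weights, -0.02 with the other-cell covariate, -0.13 with the microglia covariate and -0.03 to 0.06 with 1 library left out, and with the microglia covariate Cyba was -0.02 and Ncf1 -0.04. Between PKR KO and EGFP, Cybb was 0.05 with the block and -0.13 to 0.16 with 1 library left out, and Rac2 was -0.06 with the other-cell covariate. Between circRNA and PKR KO, Cyba was 0.04 with quantile normalization, 0.05 with the other-cell covariate and -0.25 to 0.01 with 1 library left out, and Rac2 was -0.00 with median-ratio scaling, -0.04 with quality weights and -0.00 with the microglia covariate.

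Over all genes, called genes ranged over the alternatives from 509 to 3709 in 5xFAD EGFP against WT (1514 as reported), 1725 to 5676 with circRNA (2796), 3104 to 6595 in PKR KO (3997) and 2771 to 6621 for the mean (3303). Within 5xFAD they ranged from 0 to 12 for circRNA against EGFP (0), 0 to 822 for PKR KO against EGFP (9) and 147 to 3161 for circRNA against PKR KO (670). The count of 147 came without PKR KO replicate 1 and that of 3161 with quality weights. The 2 libraries of 5xFAD EGFP limit the comparisons with that group.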
